A study of Mus musculus with 6 samples.

Results

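The genes described here are 8 genes of the Notch pathway: the receptors Notch1, Notch2 and Notch3, the ligand Jag1, and the target genes Hes1, Hey1, Heyl and Nrarp. They were chosen by name, and 7 of the 8 are among the 16455 genes listed in the count table. Nrarp, which encodes an ankyrin-repeat protein that limits Notch signaling, has no level here. RNA-seq was performed on primary osteoblasts from 3-day-old mice of the C57/B6 strain, with 3 wild-type (WT) libraries and 3 libraries of a conditional knockout of all 3 Tet genes (TCKO), after culture for 3 days. In TCKO mice floxed Tet1, Tet2 and Tet3, which encode enzymes that oxidise 5-methylcytosine, are removed by Prx1-Cre, a recombinase active in limb and skull mesenchyme. The published methods, taken here to describe these libraries, give parietal bone of the skull as the source of the cells, and cells of another origin in the dish would keep their Tet genes. The labels do not say whether WT mice carried Cre or floxed alleles, or whether libraries came from separate animals, and the p-values therefore measure only the spread between these libraries, which may be technical.

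Notch receptors are single-pass membrane proteins that are cut after a ligand such as JAG1 on a neighbouring cell pulls on them. The freed intracellular part enters the nucleus, joins the DNA-binding protein RBPJ and Mastermind co-activators, and switches on repressors of the Hes and Hey families. In the skeleton, Notch signaling is known to hold mesenchymal progenitors back from becoming osteoblasts. Notch3 is also known as a receptor of pericytes and vascular smooth muscle cells.

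Total counts ran from 8119261 to 10657824 reads, and levels are given in CPM (reads scaled to a fixed library size, with TMM correction for composition), where 1 CPM stood for about 8.12 to 10.7 reads. The members differed widely in depth. Notch2 had 5562 reads over the 6 libraries, Notch1 had 3208, Notch3 had 2880, Jag1 had 2862 and Hes1 had 2279, while Hey1 had 96 and Heyl 32. Heyl did not pass the filter on low counts, which left 6 members among 13630 genes tested. Replicate 3 stood apart from replicates 1 and 2 in both genotypes. Across genes, the chi-square per degree of freedom between replicates 1 and 2 was 1.75 in WT and 2.53 in TCKO, and between replicate 3 and the others it was 15.8 to 23.0. Replicates 1 and 2 thus differed by more than sampling noise and were kept as separate libraries, but they were much closer to each other than to replicate 3. Values are therefore given below for both sets as well. Of the targeted genes, Tet1 fell (9.73 ± 1.14 to 5.06 ± 1.32 CPM, edgeR adjusted p = 0.0207), Tet3 rose (43.7 ± 2.40 to 61.0 ± 4.75 CPM, 0.00803) and Tet2 did not pass (14.7 ± 0.974 and 12.0 ± 2.17 CPM, 0.244, SD, n = 3). The Tet1 difference was -0.68 on the log2 scale in replicates 1 and 2 and -1.42 in replicate 3. The Tet1 call was lost on leaving out WT replicate 1 (0.0559), WT replicate 2 (0.0672) or TCKO replicate 2 (0.0799), and with replicates 1 and 2 summed both calls were lost (0.125 for Tet1, 0.101 for Tet3). These counts cover whole genes, including exons that Cre leaves in place, and do not check the genotype labels.

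Notch3 was the member that fell in TCKO. Its level was 71.9, 71.8 and 51.6 CPM in WT replicates 1 to 3 and 38.0, 37.0 and 46.9 CPM in TCKO. All 3 TCKO values lay below all 3 WT values, but the gap between the genotypes was wide in replicates 1 and 2 and narrow in replicate 3. The mean went from 65.1 ± 11.7 to 40.6 ± 5.48 CPM (SD, n = 3), which is -0.68 ± 0.15 on the log2 scale (SE, edgeR adjusted p = 0.0197), or 1.60-fold lower. A fold above 2, the further threshold of the published methods, was reached by none of the 6 members tested (in edgeR 2 of them had an unadjusted p under 0.05 and 1 passed in DESeq2 at any fold), against 6.07% of all genes. Among the 6 members tested, Notch3 was the 1 that passed at any fold, against 8.9% of all genes tested that passed in this direction and 18.3% in either direction. It was also the 1 member with no overlap between the genotypes, against 18.9% of genes with every TCKO value below WT and 38.2% in either direction. In DESeq2 it was again the 1 member called (adjusted p = 0.00147), where 7.61% of genes were called lower.

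The Notch3 call was not stable. With the replicate number as a block, which pairs same-numbered libraries, the edgeR adjusted p was 0.0532, in a fit where 11.9% of all genes were called lower. Dropping WT replicate 1 gave 0.0787, dropping WT replicate 2 gave 0.0819, and the same for TCKO gave 0.0802 (replicate 1) and 0.0768 (replicate 2). Over all genes 578 to 646 were called lower in these fits, against 1213 in the main fit. The call held without WT replicate 3 (0.00208), without TCKO replicate 3 (0.00974) and in limma-voom (adjusted p = 0.0232). It was lost in 6 of 14 alternatives. Summing replicates 1 and 2 of each genotype into 1 library gave 0.237, in a fit where 2.44% of genes passed and 1.08% were lower. The direction was negative in each of these fits. Notch3 (Entrez 18131) lies on chromosome 17, 32120820 to 32166896 in GRCm38, and an antisense gene, Gm17276, overlaps it on the other strand. The sources used here do not say whether counting used strand, so reads of this pair cannot be told apart. In bulk cultures, fewer cells that express a gene and less RNA per cell cannot be told apart either.

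TET enzymes act on CpG sites, so the region around the start of Notch3 is shown with that of Jag1, the member nearest to Notch3 in its p-value, with each CG in capitals. Sequences are from RefSeq (GRCm38.p6), run 5′ to 3′ on the strand of the gene, and cover 250 bases before to 50 bases after the start. The table used holds such a window for 5 of the 8 members: Notch1, Notch2, Notch3, Jag1 and Nrarp.
Notch3, chr17:32166841-32167140, minus strand: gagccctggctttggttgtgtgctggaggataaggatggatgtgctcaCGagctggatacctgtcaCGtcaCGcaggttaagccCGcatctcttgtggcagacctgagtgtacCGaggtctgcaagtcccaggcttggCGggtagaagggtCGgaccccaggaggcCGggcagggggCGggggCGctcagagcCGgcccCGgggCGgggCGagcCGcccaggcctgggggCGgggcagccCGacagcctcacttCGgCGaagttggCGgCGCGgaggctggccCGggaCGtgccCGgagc
Jag1, chr2:137116471-137116770, minus strand: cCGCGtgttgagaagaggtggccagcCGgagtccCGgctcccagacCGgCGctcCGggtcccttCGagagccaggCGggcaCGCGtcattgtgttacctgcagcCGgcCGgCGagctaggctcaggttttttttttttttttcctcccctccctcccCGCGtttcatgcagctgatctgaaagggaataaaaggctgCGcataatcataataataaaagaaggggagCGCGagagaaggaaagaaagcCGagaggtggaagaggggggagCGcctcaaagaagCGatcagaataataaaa
The Notch3 window holds 25 CpG sites and the Jag1 window 22, against a median of 7 over 27025 mouse promoters of this length. Notch1, Notch2 and Nrarp hold 23, 41 and 21. All 5 windows thus lie above that median, at percentile ranks of 75.0 (Nrarp), 76.7 (Jag1), 78.4 (Notch1), 81.6 (Notch3) and 96.7 (Notch2). This held for Notch3 and for the members that did not pass the test, and Nrarp has no level here. The core of the RBPJ motif (TGGGAA, searched on both strands) was not matched in these 5 windows and is present in 25.5% of all promoters. The longer form GTGGGAA, which contains that core, is present in 6.39% of promoters, and a RUNX motif (TGTGGT) in 16.9%, and neither was matched in the 5 windows. The E-box CACGTG, a palindrome that Hey proteins can bind, was matched in Nrarp, at -108 bases from the start, and is present in 7.24% of promoters. DNA methylation was not part of these files.

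Notch1 and Notch2, the other receptors, did not pass the test. Notch1 had 68.8, 68.1 and 58.5 CPM in WT and 49.7, 45.3 and 65.0 CPM in TCKO. TCKO replicates 1 and 2 lay below all WT values, and TCKO replicate 3 lay within the WT range. Its log2 fold change was -0.29 ± 0.14 (edgeR adjusted p = 0.194), with an interval of 2 SE from -0.57 to -0.0093. Without TCKO replicate 3 the log2 fold change was -0.45 and passed (edgeR adjusted p = 0.0141). Non-coding genes on the opposite strand overlap Notch1 as well. Notch2, the most abundant receptor and the one best known for its part in skeletal disease, had 117, 113 and 94.8 CPM in WT and 107, 102 and 84.4 CPM in TCKO. In Notch2 replicate 3 was the lowest library of each genotype and the genotypes overlapped. The difference was -0.15 ± 0.11 on the log2 scale (edgeR adjusted p = 0.418, interval -0.38 to 0.083), and no alternative that gave Notch2 a p-value took it past the threshold.

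Jag1 came next to Notch3 but did not pass. Its level was 70.9, 69.3 and 44.8 CPM in WT and 42.4, 40.4 and 47.6 CPM in TCKO. WT replicates 1 and 2 stood above the other 4 libraries, which lay close together. The mean was 61.7 ± 14.6 CPM in WT and 43.5 ± 3.71 CPM in TCKO, or -0.51 ± 0.17 on the log2 scale (edgeR adjusted p = 0.0868, DESeq2 adjusted p = 0.0512). Without WT replicate 3 the log2 fold change was -0.69 and passed (edgeR adjusted p = 0.00179), and in the other fits that left out a library the adjusted p ran from 0.0939 to 0.252.

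**Figure D1:**
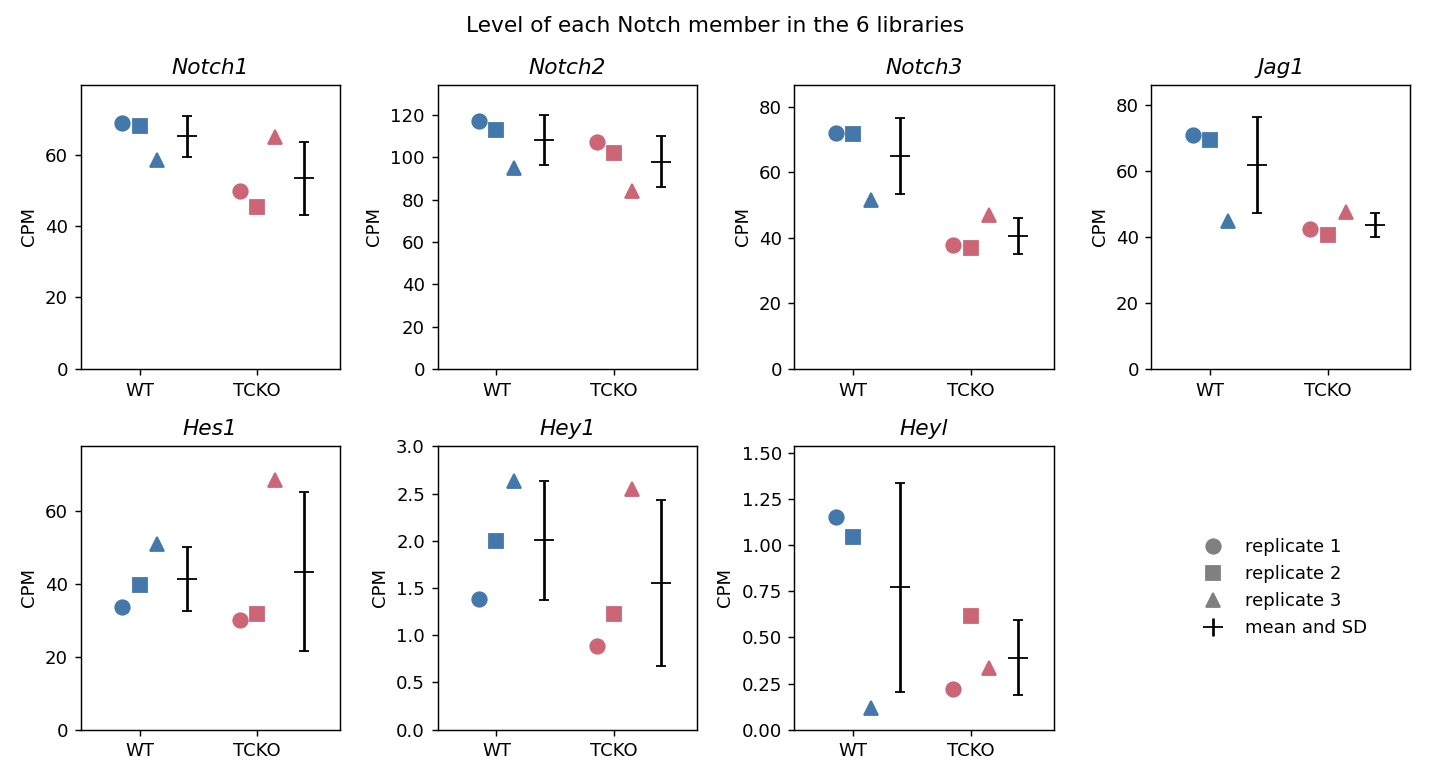
Level of each of the 7 listed members in CPM (vertical axis, from 0) in the 3 WT and 3 TCKO libraries, with the replicate number as the symbol and the mean and SD (n = 3) in black. In Notch3 and Jag1 the WT libraries of replicates 1 and 2 sit near 70 CPM and the remaining libraries between 37.0 and 51.6 CPM, and in Hes1 TCKO replicate 3 is the highest library at 68.4 CPM.

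No target gene passed the test. Hes1, the basic helix-loop-helix repressor most widely used as a Notch readout, had 33.6, 39.6 and 50.8 CPM in WT and 30.0, 31.6 and 68.4 CPM in TCKO. Replicate 3 was the highest library of each genotype, and the TCKO values spread to both sides of the WT range. Its log2 fold change was 0.07 ± 0.36 (edgeR adjusted p = 0.917), and the interval of 2 SE from -0.64 to 0.79 holds changes of either sign. The log2 fold change of Hes1 turned negative in 5 alternatives, with -0.0084 in limma-voom, -0.0019 under the replicate block, -0.058 without WT replicate 1, -0.42 without TCKO replicate 3 and -0.25 in replicates 1 and 2 alone. Hey1, a related repressor induced by Notch and by BMP signaling, had 12, 21 and 22 reads in the WT libraries against 8, 10 and 23 in the TCKO libraries. In Hey1 replicate 3 was again the highest library of each genotype, and the genotypes overlapped (log2 fold change -0.35 ± 0.44, edgeR adjusted p = 0.624, interval -1.24 to 0.53). Heyl, a Hey relative of vascular smooth muscle, had 10, 11 and 1 reads in the WT libraries against 2, 5 and 3 in the TCKO libraries. WT replicate 3 was the lowest library of all, and with every listed gene tested the log2 fold change of Heyl was -1.01 (edgeR adjusted p = 0.413).

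Read together by replicate set, the members split. In replicates 1 and 2 alone, all 6 members tested had a negative log2 fold change: -0.93 for Notch3, -0.75 for Jag1, -0.70 for Hey1, -0.52 for Notch1, -0.25 for Hes1 and -0.13 for Notch2. Of these, Notch1, Notch3, Jag1 and Hes1 passed (4 of 6), against 22.7% of all genes tested in that fit that passed with a lower level in TCKO. The edgeR adjusted p of Hes1 there was 0.0205, and 46.3% of all genes passed in that fit. Within replicate 3 the log2 difference was -0.14 for Notch3, 0.087 for Jag1, -0.046 for Hey1, 0.15 for Notch1, 0.43 for Hes1 and -0.17 for Notch2. Thus 3 of the 4 members that passed in replicates 1 and 2 had the opposite sign in replicate 3, while this was so for 18.6% of the 6279 genes that passed there and were also tested over all 6 libraries. Whether or not they passed, 3 of 6 members had opposite signs, against 30.2% of 13547 genes. Within a genotype, replicate 3 differed from the other replicates by a median of 0.1985 to 0.2051 (absolute log2). The replicate 3 differences of Jag1 and Notch1 were smaller than that. The median over the 6 members was -0.61 in replicates 1 and 2 and 0.020 in replicate 3, and -0.32 over all libraries, against medians within 0.01 of 0 over all genes tested. Replicate 3 is 1 library per genotype, and the difference between the replicate sets was not tested. Notch2 was the member with nearly the same value in both sets.

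**Figure D2:**
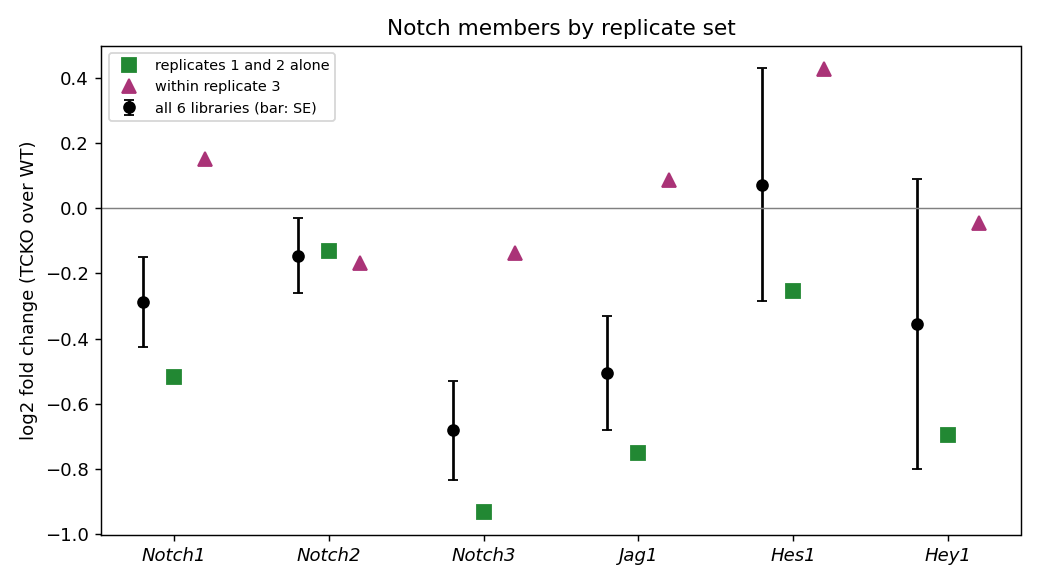
Log2 fold change of TCKO over WT (vertical axis) for the 6 members tested, from all 6 libraries (black, bar: SE), from replicates 1 and 2 alone (green) and within replicate 3 (purple). Green symbols lie below 0 for all 6 members, and the purple symbols of Notch1 (0.15), Jag1 (0.087) and Hes1 (0.43) lie above 0.

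Levels were compared between members after division by the length of their exons. In WT, Hes1 was the highest at 20.3 ± 4.29 CPM per kb (SD, n = 3), followed by Jag1 at 10.6 ± 2.51, Notch2 at 10.0 ± 1.11, Notch3 at 8.05 ± 1.44, Notch1 at 4.58 ± 0.405, Hey1 at 0.614 ± 0.192 and Heyl at 0.151 ± 0.111 CPM per kb. Jag1 was above Notch2 in WT replicates 1 and 2 and below it in replicate 3, so their order was within the spread of the libraries. The ranges of Notch2 and Notch3 overlapped, but within each WT library Notch2 was the higher, with ratios of 1.22, 1.18 and 1.38. The other neighbours in this order did not overlap. In TCKO the order of the levels was Hes1 (21.3 ± 10.7 CPM per kb), Notch2 (9.08 ± 1.11), Jag1 (7.46 ± 0.636), Notch3 (5.02 ± 0.678), Notch1 (3.75 ± 0.725), Hey1 (0.476 ± 0.269) and Heyl (0.0762 ± 0.0396). Here the libraries of Notch2 and Jag1 overlapped. Of the summed receptor level per kb, Notch2 made up 44.2%, 43.4% and 45.6% in WT and 54.8%, 55.0% and 43.0% in TCKO replicates 1 to 3. The Notch3 share was 36.1%, 36.8% and 33.1% in WT and 25.9%, 26.5% and 31.9% in TCKO. Notch3 thus took a smaller share in all 3 TCKO libraries than in any WT library, and the Notch2 share was larger in TCKO replicates 1 and 2 and not in replicate 3. The order of Notch2 over Notch1 held with either length, with a WT mean ratio of 2.19 over the union of exons and 1.50 over the longest transcript. The TCKO order of Notch3 over Notch1 did not hold. Over the longest transcript the Notch1 share was 26.0%, 25.0% and 33.0% in TCKO replicates 1 to 3. The Notch3 share was lower in each, at 23.5%, 24.1% and 28.2%.

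**Figure D3:**
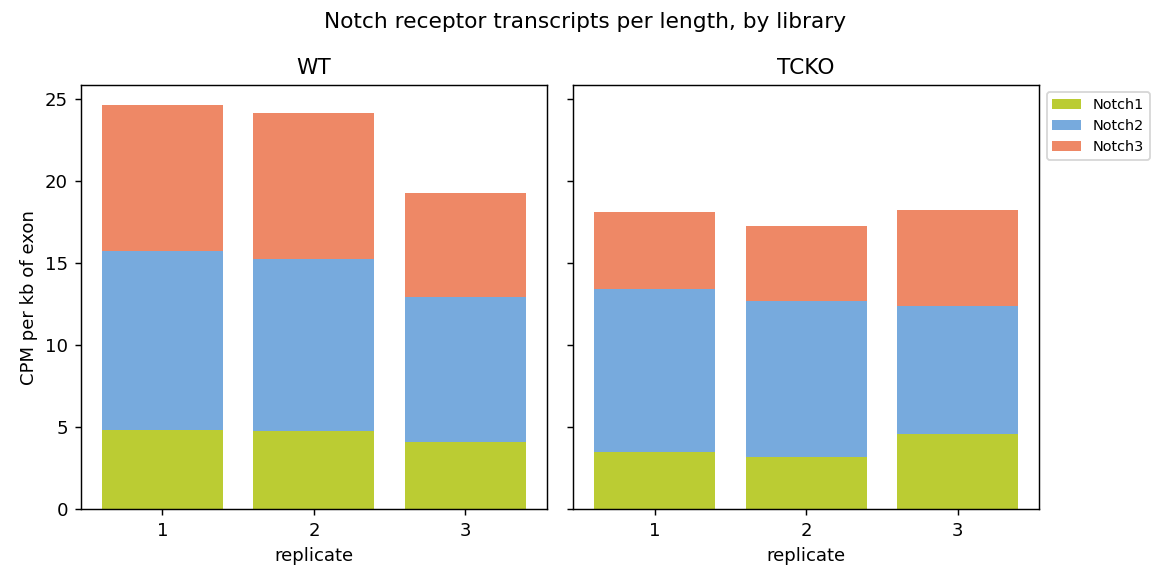
Level of Notch1, Notch2 and Notch3 in CPM per kb of exon (vertical axis, stacked from 0) in each of the 3 WT and 3 TCKO libraries. The stacks reach 19.3 to 24.6 CPM per kb in WT against 17.2 to 18.2 in TCKO, and the Notch3 part is smaller in TCKO replicates 1 and 2 than in the other libraries.

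Genes with a pattern over the 6 libraries close to that of Notch3 were sought. Among 9611 other genes with a mean of at least 10 CPM, the 3 nearest were Atp9a, a phospholipid flippase gene, Cacna1g, a T-type calcium channel gene, and Idua, which encodes a lysosomal enzyme that breaks down glycosaminoglycans. The root mean square difference of their centred log2 levels from Notch3 was 0.059, 0.061 and 0.073. Cacna1g had 133, 128 and 91.2 CPM in WT and 67.2, 63.5 and 75.8 CPM in TCKO. These genes were selected for their closeness, so a shared narrow gap in replicate 3 follows from the selection. How close the nearest genes lie for genes other than Notch3 was not computed.

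Most of the remaining pathway did not pass. Of 75 other Notch pathway genes, 64 were listed and 61 tested, and 5 rose, 3 fell and 53 did not pass. That is 13.1% of the 61, against 18.3% of all genes tested (9.44% higher, 8.9% lower), with a median log2 fold change of -0.01. Under the replicate block 9 rose and 3 fell, where 24.6% of all genes passed (12.7% higher, 11.9% lower). In replicates 1 and 2 alone 16 rose and 11 fell, where 23.6% of genes were higher and 22.7% lower. With replicates 1 and 2 summed 0 passed in edgeR (7 higher and 3 lower at an unadjusted p under 0.05). In that fit 1.36% of genes were higher and 1.08% lower. In DESeq2 on all libraries 4 rose and 2 fell, where 8.09% were higher and 7.61% lower. The counts higher and lower became 4 and 1 when WT replicate 1 was left out, 3 and 2 for WT replicate 2, 4 and 5 for WT replicate 3, 2 and 2 for TCKO replicate 1 and also for TCKO replicate 2, and 6 and 5 for TCKO replicate 3. Over all genes 1287 rose and 1213 fell in the main fit. In the same order of libraries left out, the all-gene counts were 634 and 584, 612 and 578, 1702 and 1611, 700 and 631, 720 and 646, and 1509 and 1465.

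Ligands other than Jag1 were scarce or not listed in the count table. Dll1, Dll3 and Dll4 were not listed and have no level here. Jag2 had 2 to 8 reads in a library and the endothelial receptor Notch4 had 1 to 12, and neither was tested. Dlk2 had 3.28 ± 1.19 CPM in WT and 3.16 ± 0.332 CPM in TCKO and did not pass (edgeR adjusted p = 0.948). Dlk1, a Delta-like protein that lacks the receptor-binding motif of other ligands, was the exception, with 13.7, 10.1 and 42.3 CPM in WT and 34.3, 30.8 and 156 CPM in TCKO. Dlk1 was highest in replicate 3 of each genotype, and within every replicate number TCKO was above WT. The difference of 1.76 ± 0.89 on the log2 scale missed the threshold (edgeR adjusted p = 0.237), passed under the replicate block (0.000136) and did not pass with replicates 1 and 2 summed (0.410).

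Among genes that prepare ligands and receptors, Mib2 and Pofut1 fell (2 of 7 tested, 5 not passing). Mib2, a ubiquitin ligase that acts on Notch ligands, had 57.7, 48.1 and 54.4 CPM in WT and 34.4, 35.8 and 35.7 CPM in TCKO, with every TCKO library below every WT library. Its log2 fold change was -0.60 ± 0.090 (edgeR adjusted p = 0.00361), with nearly equal values in replicates 1 and 2 (-0.58) and replicate 3 (-0.61). Pofut1, which adds fucose to the extracellular repeats of the receptor, went from 110 ± 3.20 to 90.6 ± 4.61 CPM (-0.28 ± 0.069, edgeR adjusted p = 0.0275). Furin, a protease that cuts the receptor during its passage through the Golgi, rose from 140, 133 and 150 CPM to 194, 199 and 195 CPM (0.47 ± 0.069, edgeR adjusted p = 0.00303). It was the 1 of 10 cleavage genes that passed, and the 9 others, among them all tested subunits of gamma-secretase, did not.

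In the nucleus, Maml2 fell and Rbpj did not pass. Maml2, a Mastermind co-activator, had 54.4, 56.3 and 38.3 CPM in WT and 30.8, 25.8 and 29.3 CPM in TCKO (log2 fold change -0.80 ± 0.15, edgeR adjusted p = 0.0107). Like Notch3 it was lower in WT replicate 3 than in the other WT libraries, and its log2 difference was -0.96 in replicates 1 and 2 and -0.38 within replicate 3. It was the 1 of 9 nuclear complex genes that passed, while its paralogs Maml1 (0.0027 ± 0.074) and Maml3 (0.094 ± 0.15) did not. Among 16 co-repressors and Hes/Hey partners 2 rose: Tle3, a Groucho-type protein that Hes repressors recruit (50.9 ± 7.47 to 70.3 ± 1.82 CPM), and the histone deacetylase gene Hdac2 (119 ± 9.22 to 145 ± 4.54 CPM). Of 13 turnover genes Dtx4, a Deltex ubiquitin ligase, rose from 5.52 ± 1.05 to 9.46 ± 1.29 CPM. Of 4 other Hes and Hey family genes Bhlhe40, a related repressor that also responds to hypoxia and the circadian clock, rose from 44.4, 39.6 and 66.7 CPM to 122, 126 and 102 CPM (log2 fold change 1.22 ± 0.20, edgeR adjusted p = 0.00706). Hey2 had 9 to 17 reads in WT and 17 to 26 in TCKO and did not pass (0.78 ± 0.32, edgeR adjusted p = 0.126).

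**Figure D4:**
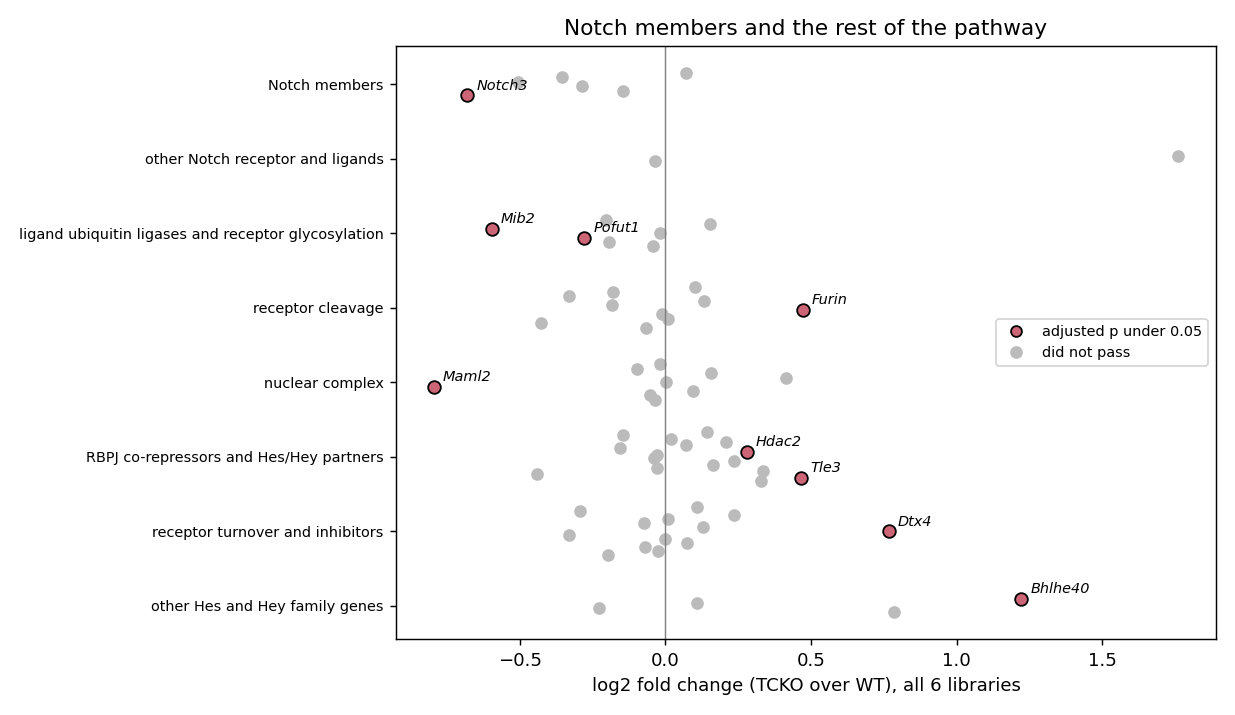
Log2 fold change of TCKO over WT (horizontal axis, all 6 libraries) for the 6 members tested and 61 other pathway genes, grouped by role. Red points passed at an edgeR adjusted p under 0.05 and are named, with Maml2 the lowest called gene at -0.80 and Bhlhe40 the highest called gene at 1.22.

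These calls differed in how firm they were. Mib2, Furin and Bhlhe40 passed with every library left out in turn, and Maml2 missed without WT replicate 1 (edgeR adjusted p = 0.0502). Pofut1 (0.0596 to 0.111) and Dtx4 (0.0705 to 0.112) missed when replicate 1 or 2 of either genotype was left out. Tle3 missed when TCKO replicate 1, TCKO replicate 2 or WT replicate 2 was left out (0.0641 to 0.0795). Hdac2 missed when TCKO replicate 1, TCKO replicate 2, WT replicate 1 or WT replicate 3 was left out (0.0544 to 0.155), and Pofut1 and Hdac2 also missed in DESeq2 (0.0625 and 0.0583). In replicates 1 and 2 alone and within replicate 3 the log2 differences were 0.53 and 0.38 for Furin, 1.57 and 0.62 for Bhlhe40, 0.35 and 0.75 for Tle3, 0.24 and 0.36 for Hdac2, 0.74 and 0.85 for Dtx4 and -0.26 and -0.31 for Pofut1. The direction of these genes was thus shared by both sets, and the size was not equal. With replicates 1 and 2 summed these 8 genes had edgeR adjusted p-values of 0.0649 to 0.246.

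Markers of other cells were examined because Notch genes are expressed in several cell types. Of 11 pericyte and smooth muscle markers 9 were tested, and 3 rose, 1 fell and 5 did not pass. Their summed level was 6801 to 7352 CPM in WT and 8810 to 9556 CPM in TCKO, and most of this sum was Acta2 (3849 and 4620 CPM) and Tagln (2462 and 3863 CPM). The 3 that rose were Tagln, Mcam (20.9 to 44.9 CPM, edgeR adjusted p = 0.00108) and Cnn1 (89.0 to 316 CPM, edgeR adjusted p = 7.16e-05). These 3 passed with each library left out in turn. The 1 that fell was Pdgfrb. Pdgfrb, the PDGF receptor of pericytes and other mesenchymal cells, fell from 513 to 276 CPM (log2 fold change -0.90 ± 0.12, edgeR adjusted p = 0.00224) and passed with each library left out in turn. Cspg4, which encodes the NG2 proteoglycan, had 134 CPM in WT and 64.8 CPM in TCKO and did not pass (-1.04 ± 0.33, edgeR adjusted p = 0.0840). Under the replicate block its edgeR adjusted p was 0.000136. The defining pericyte marker Rgs5 was at 1.20 to 2.76 CPM in WT and 1.22 to 2.10 CPM in TCKO, and Myh11 at 4.43 to 15.4 and 11.5 to 18.3 CPM. Of 12 endothelial markers 10 were listed and 5 tested (3 higher, 2 lower), with a summed level of 269 to 287 CPM in WT and 140 to 237 CPM in TCKO. Nearly all of the WT sum was Eng, which fell from 267 to 97.8 CPM. Erg also fell (4.38 to 0.562 CPM). Those that rose were Kdr (0.879 to 61.4 CPM), Flt1 (1.87 to 8.47 CPM) and Esam (0.503 to 2.76 CPM). The defining endothelial markers Pecam1, with 1 to 6 reads per library, and Cdh5, with 0 reads in TCKO replicate 3 and 4 to 9 elsewhere, were near 0. Of 12 macrophage markers 1 fell and 11 did not pass, with summed levels of 456 to 850 CPM in WT and 175 to 617 CPM in TCKO and the lowest value in replicate 3 of each genotype. Under the replicate block 9 of the 12 macrophage markers were lower, in replicates 1 and 2 alone 11 were, and with these summed 1 was. Their median log2 fold change was -0.98 over all libraries. All 12 chondrocyte markers fell (8440 to 10204 CPM in WT and 1075 to 1481 CPM in TCKO, summed). Of 12 proliferation genes 8 rose (381 to 578 CPM in WT and 684 to 750 CPM in TCKO, summed). Of 14 osteoblast markers 10 were tested, of which 6 fell and 1 rose (41576 to 44746 CPM in WT and 21743 to 38076 CPM in TCKO, summed), and Bglap2 had 0 reads in TCKO replicates 2 and 3. Most of this sum was Col1a1 (17774 and 11428 CPM) and Col1a2 (13327 and 7270 CPM). The osteoblast marker that rose was Spp1, from 1272 to 8195 CPM (edgeR adjusted p = 0.0240, and 0.135 under the replicate block). Under the block 2 mural markers were lower and 3 higher, 11 chondrocyte and 8 osteoblast markers were lower and 11 proliferation genes were higher. In replicates 1 and 2 alone 2 mural markers were lower and 6 higher, 12 chondrocyte and 9 osteoblast markers were lower and 12 proliferation genes were higher. Of all genes tested, 8.9% passed lower and 9.44% higher over all libraries, and 11.9% and 12.7% under the block. The shares were 22.7% and 23.6% in replicates 1 and 2 alone, and 1.08% and 1.36% with these summed. Acta2, Tagln, Pdgfrb, Cspg4, Mcam, Cnn1, Spp1, Col1a2, Bglap2 and the endothelial genes other than Pecam1 and Cdh5 were named after their values were seen. The part of these cell types in the values of the Notch genes was not tested.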

How the data were processed

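RNA-seq of 3 WT and 3 TCKO cultures was analysed. The deposited table holds raw read counts per gene symbol, which the authors obtained after alignment to GRCm38. HISAT2 is named in the submitters' processing notes and STAR in the published methods. No source used here gives the counting program or its strand setting. The authors' group means, fold changes and p-values were not used.

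Counts were fitted over the whole table in R 4.3.3 with edgeR 4.0.16 (filterByExpr, TMM, robust glmQLFit, glmQLFTest, genotype as the only term), which tested 13630 of 16455 genes. P-values are 2-sided with Benjamini-Hochberg adjustment across the genes tested, and a gene passed at an adjusted p under 0.05. The SE is the log2 fold change divided by the square root of F. CPM values use TMM library sizes. Libraries held 8119261 to 10657824 reads, and precision follows from this depth. The fits were also run on simulated counts. The simulated libraries were independent and had no replicate effect, so they say nothing on the replicate structure seen here. Alternatives were RLE or total-count scaling, no filter, DESeq2 1.42.0, limma-voom (limma 3.58.1), a replicate block, replicates 1 and 2 summed or alone, and each library left out.

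Deviations from the group means correlated at 0.18, 0.18 and 0.32 between same-numbered libraries, each above the 0.1 set for pairing. The main fit was nevertheless not paired, and pairing by number entered only through the replicate block, given as an alternative. Crossed pairs within replicates 1 and 2 correlated as strongly (0.23 for WT 2 with TCKO 1, 0.17 for WT 1 with TCKO 2), so the values set replicate 3 apart but do not tell numbers 1 and 2 apart. The labels do not say what a number marks. Exon lengths are from GENCODE M21 and gene positions from RefSeq, both on GRCm38. The members and lists were chosen with earlier results of these data known. Named genes are the members, pathway genes that passed, the Tet genes, defining markers, and list genes that a negative result requires. The genes most like Notch3 had the smallest root mean square difference of centred log2 CPM.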

Additional observations from a re-analysis of the deposited data

How the results depend on the processing

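Each count below is the number of genes at an adjusted p under 0.05. The number of members lower in TCKO, 1 in the fit reported, was 0 under the replicate block and 0 with replicates 1 and 2 summed (2 and 1 at an unadjusted p under 0.05 in edgeR, with 1 in DESeq2 and 1 in limma-voom on all libraries), 4 in replicates 1 and 2 alone, and 0 to 2 with 1 library left out. For the other pathway genes 5 rose and 3 fell. Under the replicate block 9 rose, with replicates 1 and 2 summed 0 rose and 0 fell (7 and 3 at an unadjusted p under 0.05 in edgeR, with 4 and 2 adjusted in DESeq2 and 6 and 3 in limma-voom on all libraries), in replicates 1 and 2 alone 16 rose and 11 fell, and with 1 library left out 2 to 6 rose and 1 to 5 fell. Over all genes 1287 rose and 1213 fell, with 197 and 156 when replicates 1 and 2 were summed, 3243 and 3128 in replicates 1 and 2 alone, and 612 to 1702 and 578 to 1611 with 1 library left out (at most 720 and 646 when replicate 1 or 2 of either genotype was the one left out). Of the marker genes 15 rose and 22 fell, with 3 and 9 when replicates 1 and 2 were summed and 36 lower in replicates 1 and 2 alone. Under the replicate block 32 marker genes fell. The cause of these differences was not tested.

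The direction changed for Hes1 in limma-voom (-0.0084), under the replicate block (-0.0019), in replicates 1 and 2 alone (-0.25) and with 1 library left out (-0.42 to 0.28), and within replicate 3 for Notch1 (0.15) and Jag1 (0.087). The WT ratio of Notch2 to Notch1 was 1.50 with the longest transcript, and with that length Notch1 lay above Notch3 in every TCKO library. Scaling moved the median of all genes by at most 0.033 on the log2 scale. Beyond Notch3 the block changed no other call among the members. Hey1 and Heyl rest on 96 and 32 reads, and no detection limit was measured for them.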

Other observations

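A few further pathway genes had differences of opposite sign or unequal size in the replicate sets, or were highest in replicate 3. Rbpj, the DNA-binding partner of the cut receptor, had 92.9, 86.4 and 113 CPM in WT and 103, 104 and 74.4 CPM in TCKO. Its log2 difference was 0.21 in replicates 1 and 2 (edgeR adjusted p = 0.00378 in that fit) and -0.60 within replicate 3, and over all libraries it did not pass (-0.054 ± 0.15, edgeR adjusted p = 0.840). Aph1a, a gamma-secretase subunit, had 45.8, 45.6 and 45.9 CPM in WT and 30.1, 36.7 and 42.3 CPM in TCKO, with every TCKO value below WT and no pass over all libraries (-0.33 ± 0.12, edgeR adjusted p = 0.0976). Lfng, which extends the fucose added by Pofut1, had 6.68, 6.08 and 8.75 CPM in WT and 4.32, 5.16 and 9.08 CPM in TCKO and, like Hes1 and Hey1, was highest in replicate 3 of each genotype. These genes were picked after their values were seen.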
